A study of Mus musculus with 8 samples.

Results

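Lin28a, Lin28b, Trim71, Hmga1, Hmga2, Igf2bp1, Igf2bp2 and Igf2bp3 are genes of the Lin28 and let-7 circuit that are active in early embryos and in embryonic stem cells. They were taken by gene symbol from a table of expression values in mouse embryonic stem cells, which gave 8 of its 49641 gene entries, 1 entry per symbol. All 8 passed the filter on low values, a mean of at least 1 FPKM over all libraries (FPKM counts sequenced fragments relative to the length of the transcript and to the size of the library), as did 12786 entries in all.

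RNA was sequenced from 8 libraries, 2 in each of 4 groups. The siMbnl1/2 group was Dgcr8 knockout (KO) cells given siRNAs against Mbnl1 and Mbnl2, which encode splicing regulators, and the miR-294 group was Dgcr8 KO cells given a synthetic miR-294; both agents were used at 50 nM, 16 hours after plating. The Dgcr8 KO group carried the same deletion without either agent, and the WT group had intact Dgcr8; their column names mark both as mock-treated. All 4 groups are labelled as the V6.5 line (129/C57BL/6) and were kept in LIF and serum; the culture surface was gelatin or a layer of irradiated feeder cells, and it is not stated which samples had which. The column names start with ES1 for Dgcr8 KO and with V65 for WT, and what ES1 stands for is not stated in the sources used here. Whether KO and WT cells share a parental line is thus open, and a difference between lines could not be told apart from the loss of Dgcr8. The number of KO clones is not given either. The sources do not say whether the 2 libraries of a group are separate cultures, and the p-values here rest on the spread between such libraries, which may be technical.

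let-7 is a family of microRNAs that accumulates as cells differentiate and represses genes of the embryonic and fetal state. Lin28a and Lin28b are RNA-binding proteins that hold let-7 back by binding the loop of its precursors, and their own mRNAs are let-7 targets, so that each side restrains the other. Trim71, the Hmga genes and the Igf2bp genes are other classical targets of let-7. Dgcr8 is the partner of the nuclease Drosha in the first cut of primary microRNAs, and cells without it make neither let-7 nor the miR-290 cluster, to which miR-294 belongs and which dominates the microRNAs of mouse embryonic stem cells.

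The microRNAs are shown first because the seed, bases 2 to 8 from the 5′ end, is the part that pairs with targets and is what separates the microRNA that was supplied from let-7. Mature sequences are from RefSeq (GRCm38.p6), 5′ to 3′, with the seed in capitals.
mmu-miR-294-3p: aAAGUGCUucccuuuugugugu
mmu-miR-291a-3p: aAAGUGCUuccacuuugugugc
mmu-miR-295-3p: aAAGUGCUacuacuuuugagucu
mmu-let-7a-5p: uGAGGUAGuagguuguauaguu
mmu-let-7g-5p: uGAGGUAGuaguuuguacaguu
mmu-let-7i-5p: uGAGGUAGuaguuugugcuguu
mmu-miR-98-5p: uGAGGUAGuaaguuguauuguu
The seed AAGUGCU was common to 3 mature microRNAs of the miR-290 cluster, miR-291a-3p, miR-294-3p and miR-295-3p. The seed GAGGUAG was common to 9 mature microRNAs of the let-7 family, let-7a to let-7g, let-7i and miR-98. Counted from 1 at the 5′ end and with let-7a as the reference, let-7g differs by G12U and U18C, and miR-98 by G11A and A19U, all outside the seed. The expression table has 12 entries for let-7 family genes and 9 for the miR-290 cluster, and every one of them is listed at 0 in all 8 libraries, so mature microRNA levels were not measured here.

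The sites that these seeds can pair with were looked for in the longest annotated 3′ UTR of each gene (GENCODE M21, mm10). The letters CTACCTC, CTACCTCA and TACCTCA were searched for let-7 and AGCACTT, AGCACTTA and GCACTTA for miR-294, on the transcript's strand only, and overlapping matches counted once. An 8mer pairs with the whole seed and has an A opposite base 1, a 7mer-m8 lacks that A, and a 7mer-A1 has it but leaves base 8 unpaired. A let-7 match was present in all 8 genes. Hmga2 held 7 in 3014 bases, Trim71 held 6 in 5512, Lin28b held 5 in 4445, and Igf2bp1 held 5 in 6337. Lin28a held 2 in 2775 bases, both 8mers, Igf2bp2 held 2 in 1784, Igf2bp3 held 1 in 2119 and Hmga1 held 1 in 1183. Of all 20983 genes with an annotated 3′ UTR, 14.8% hold a let-7 match. Among genes whose 3′ UTR is of similar length (0.8 to 1.25 times), 0.124% hold as many as Hmga2, 0.362% as many as Trim71 and 4.53% as many as Lin28a, but 12.9% and 23.4% hold as many as Hmga1 and Igf2bp3. These genes are known let-7 targets, so the matches describe them and are not a finding.

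Matches for miR-294 were fewer. Lin28b held 2, Trim71 and Igf2bp1 held 1 each, and the longest 3′ UTRs of Lin28a, Hmga1, Hmga2, Igf2bp2 and Igf2bp3 held none of the letters searched. Of all genes 17.6% hold such a match, and of genes with a 3′ UTR of similar length 48.4% do for Lin28b, 56.2% for Trim71 and 62.2% for Igf2bp1. One let-7 match is given for each gene, and both for Lin28a, as read from mm10 on the transcript's strand with the match in capitals; these are the places where the seeds above would pair.
Lin28a, chr4:134005189-134005210, minus strand, 8mer: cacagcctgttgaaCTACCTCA
Lin28a, chr4:134004551-134004572, minus strand, 8mer: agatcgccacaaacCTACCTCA
Lin28b, chr10:45381022-45381043, minus strand, 8mer: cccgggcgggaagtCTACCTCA
Trim71, chr9:114512472-114512493, minus strand, 8mer: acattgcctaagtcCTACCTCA
Hmga1, chr17:27563278-27563298, plus strand, 7mer-m8: cctctgttcacaaaCTACCTC
Hmga2, chr10:120364224-120364245, minus strand, 8mer: ccgacattcaatttCTACCTCA
Igf2bp1, chr11:95961778-95961799, minus strand, 8mer: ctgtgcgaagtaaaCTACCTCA
Igf2bp2, chr16:22059473-22059494, minus strand, 8mer: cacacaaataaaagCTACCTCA
Igf2bp3, chr6:49086787-49086808, minus strand, 8mer: gcatttttactcaaCTACCTCA
The 7mer-m8 matches to miR-294, found in Lin28b, Trim71 and Igf2bp1, are shown in the same way. Other kinds of pairing and other parts of the transcripts were not searched.
Lin28b, chr10:45378524-45378544, minus strand: aactcactgatatgAGCACTT
Trim71, chr9:114510082-114510102, minus strand: gggaattggtgctaAGCACTT
Igf2bp1, chr11:95960246-95960266, minus strand: aaattattacaaaaAGCACTT

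**Figure D1:**
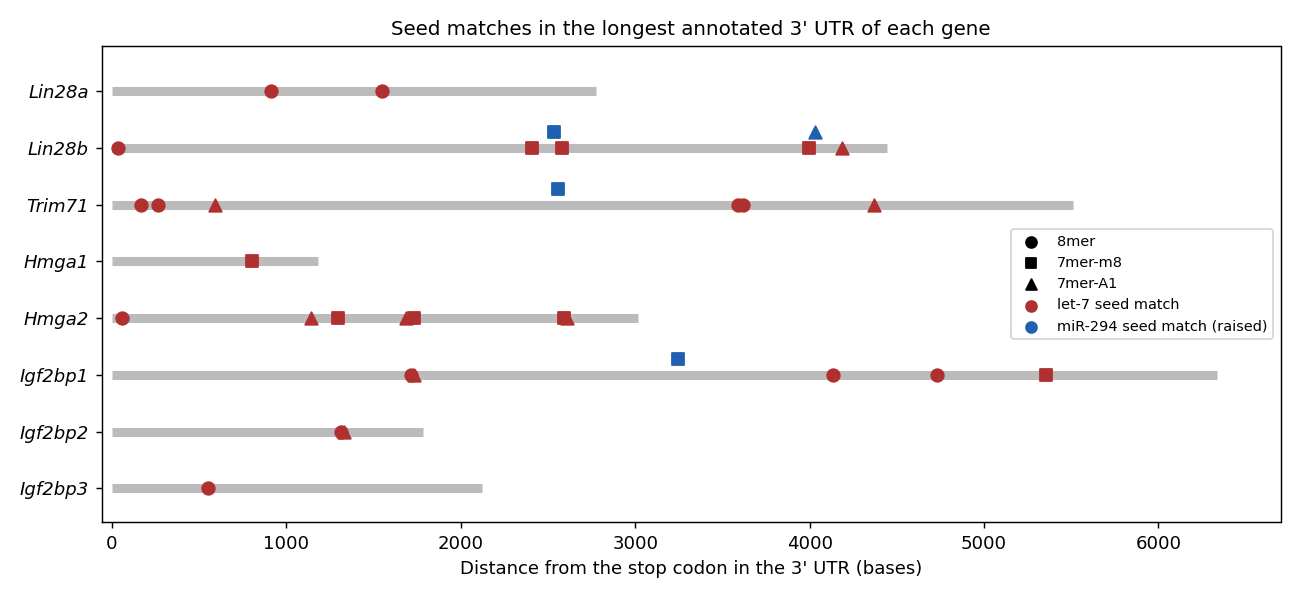
Seed matches along the longest annotated 3′ UTR of each gene, drawn to scale as distance from the stop codon in bases. Red symbols are let-7 matches and raised blue symbols are miR-294 matches; let-7 matches lie in all 8 genes, and miR-294 matches in Lin28b, Trim71 and Igf2bp1.

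The summed values differed by group: 510928 and 516085 FPKM in siMbnl1/2, 542209 and 549479 in miR-294, 502310 and 473746 in Dgcr8 KO, and 571508 and 564280 in WT. The libraries had 12386 to 12860 genes at 1 FPKM or more. The number of reads behind a value is unknown, so no counting interval can be given. Between the 2 libraries of a group, r across genes was 0.971 for siMbnl1/2, 0.984 for miR-294, 0.973 for Dgcr8 KO and 0.987 for WT. Dgcr8 averaged 8.19 FPKM in Dgcr8 KO cells and 22.4 FPKM in WT cells, a fall of 2.73-fold (adjusted p = 3.47e-05, limma). In siMbnl1/2 cells Mbnl2 averaged 12.8 FPKM, against 26.6 FPKM in Dgcr8 KO cells (adjusted p = 0.0191), while Mbnl1 averaged 6.80 FPKM, against 8.71 FPKM in Dgcr8 KO cells, and did not pass (adjusted p = 0.158). The Mbnl2 call was lost in 4 alternative fits, among them that without Dgcr8 KO replicate 2 (adjusted p = 0.121). The 10 embryonic stem cell markers were all at 1 FPKM or more in every group and summed to 7628 to 7631 FPKM in siMbnl1/2, 6060 to 6202 in miR-294, 6286 to 6816 in Dgcr8 KO and 5809 to 5864 in WT cells. Most of that sum was Dppa5a, and single markers went both ways: in Dgcr8 KO relative to WT cells 4 rose and 3 fell, among them Nanog (0.87) and Sox2 (1.03) upward and Pou5f1 (-0.49), Zfp42 (-0.51) and Utf1 (-0.89) downward on the log2 scale. Of 10 fibroblast markers that feeder cells would bring, 1 reached 1 FPKM, 4 to 6 averaged under 0.1 FPKM in a group, and their sum was 3.39 to 3.55 FPKM in siMbnl1/2, 5.04 to 5.24 in miR-294, 2.86 to 3.16 in Dgcr8 KO and 4.15 to 4.72 in WT cells.

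Markers of other embryonic states moved with the groups, and the markers named here were chosen after their values were seen. The 8 primed epiblast markers summed to 53.4 to 59.1 FPKM in siMbnl1/2, 111 to 114 in miR-294, 62.3 to 64.0 in Dgcr8 KO and 71.7 to 74.1 in WT cells, most of it Dnmt3b. Of the 5 that passed the filter, 1 rose and 3 fell in Dgcr8 KO relative to WT cells, and 4 rose and 1 fell in miR-294 relative to Dgcr8 KO cells. Otx2 ran against the sum, with 13.7 FPKM in siMbnl1/2, 7.74 in miR-294, 19.0 in Dgcr8 KO and 2.91 in WT cells. The 10 primitive endoderm markers summed to 200 to 260 FPKM in siMbnl1/2, 153 to 156 in miR-294, 231 to 254 in Dgcr8 KO and 397 to 399 in WT cells. Sparc was most of the sum in every group and averaged 219 FPKM in Dgcr8 KO and 217 FPKM in WT cells. Defining markers of that lineage were lower in the 3 groups with the Dgcr8 deletion than in WT cells. Gata6 averaged 0.233 FPKM in siMbnl1/2, 0.759 in miR-294, 0.155 in Dgcr8 KO and 10.3 in WT cells. Sox17 averaged 0.177 FPKM in siMbnl1/2, 0.245 in miR-294, 0.119 in Dgcr8 KO and 8.42 in WT cells. Of the 7 that passed the filter, some through their WT level alone, 6 fell in Dgcr8 KO relative to WT cells, and 3 rose and 2 fell in miR-294 relative to Dgcr8 KO cells. The part of such cells in the results below was not tested.

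Lin28a (ENSMUSG00000050966.9, chr4:134003330-134018841, minus strand) had by far the widest range of the 8 genes. It stood at 3.57 and 2.75 FPKM in siMbnl1/2 cells, 94.1 and 96.3 FPKM in miR-294 cells, 4.73 and 5.52 FPKM in Dgcr8 KO cells, and 106 and 112 FPKM in WT cells. The miR-294 and WT libraries were high and the siMbnl1/2 and Dgcr8 KO libraries low, and no pair of groups overlapped. In this bulk RNA, fewer cells with the transcript and less transcript per cell cannot be told apart. Relative to the other genes tested in the same library, Lin28a lay at percentile 22.0 and 16.2 in siMbnl1/2, 93.1 and 93.2 in miR-294, 27.8 and 32.5 in Dgcr8 KO, and 93.4 and 93.9 in WT cells.

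Dgcr8 KO cells had 21.3-fold less Lin28a than WT cells, a difference of -4.17 ± 0.11 on the log2(FPKM + 1) scale (SE, adjusted p = 1.50e-06), the 5th lowest of the 12786 genes tested. In miR-294 cells Lin28a rose 18.6-fold over Dgcr8 KO cells, by 3.98 ± 0.11 on that scale (adjusted p = 4.86e-06), the 8th highest change of all genes. It then averaged 87.4% of the WT mean, and the difference of miR-294 from WT cells was -0.19 ± 0.11 with a 95% interval of -0.45 to 0.07 (adjusted p = 0.238). That difference passed the test when the miR-294 and WT libraries were fitted alone (adjusted p = 0.0106) and when each library was weighted by its group's spread (adjusted p = 0.0277).

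In siMbnl1/2 cells Lin28a averaged 61.6% of its Dgcr8 KO level, a difference of -0.56 ± 0.11 on the log2 scale that did not pass (adjusted p = 0.0580) and did so without siMbnl1/2 replicate 1 (adjusted p = 0.0320). Against WT cells, the siMbnl1/2 value was 34.5-fold lower, -4.73 ± 0.11 on the log2 scale (adjusted p = 7.12e-07), the lowest change of all genes in that comparison. Against miR-294 cells it was -4.54 ± 0.11 (adjusted p = 2.00e-06), the 2nd lowest. The order of Lin28a levels was thus siMbnl1/2, Dgcr8 KO, miR-294 and WT, and neither neighbouring pair at the low or at the high end differed by the test.

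Lin28b (ENSMUSG00000063804.8, chr10:45376620-45486395, minus strand), the paralog of Lin28a, kept to a narrower range. Its level was 8.46 and 8.25 FPKM in siMbnl1/2 cells, 7.60 and 8.45 FPKM in miR-294 cells, 10.9 and 12.3 FPKM in Dgcr8 KO cells, and 9.16 and 9.15 FPKM in WT cells. The Dgcr8 KO libraries were the highest, and the siMbnl1/2 and miR-294 libraries overlapped. Lin28b was 0.31 ± 0.09 higher on the log2 scale in Dgcr8 KO than in WT cells (adjusted p = 0.0197), in the direction opposite to Lin28a. That call was lost with quantile normalization (0.17, adjusted p = 0.195) and without Dgcr8 KO replicate 2 (adjusted p = 0.0950), WT replicate 1 (0.0926) or WT replicate 2 (0.0924). In miR-294 cells Lin28b fell by 0.48 on the log2 scale below Dgcr8 KO cells (adjusted p = 0.00350), and by 0.31 with quantile normalization. In siMbnl1/2 cells its difference from Dgcr8 KO cells was of similar size, -0.43, and did not pass (adjusted p = 0.0680).

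The balance of the Lin28 pair differed between groups. FPKM is a value per length, so the levels of the paralogs can be set beside each other. Lin28a made up 27.3% ± 3.32 of the summed Lin28 FPKM in siMbnl1/2 cells, 92.2% ± 0.413 in miR-294 cells, 30.6% ± 0.546 in Dgcr8 KO cells and 92.2% ± 0.291 in WT cells (SD, n = 2 each). The sum itself was 11.5 ± 0.735 FPKM in siMbnl1/2, 103 ± 2.18 in miR-294, 16.7 ± 1.52 in Dgcr8 KO and 118 ± 4.32 in WT cells. Lin28b was thus the more abundant transcript of the pair in siMbnl1/2 and Dgcr8 KO cells, and Lin28a in miR-294 and WT cells.

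**Figure D2:**
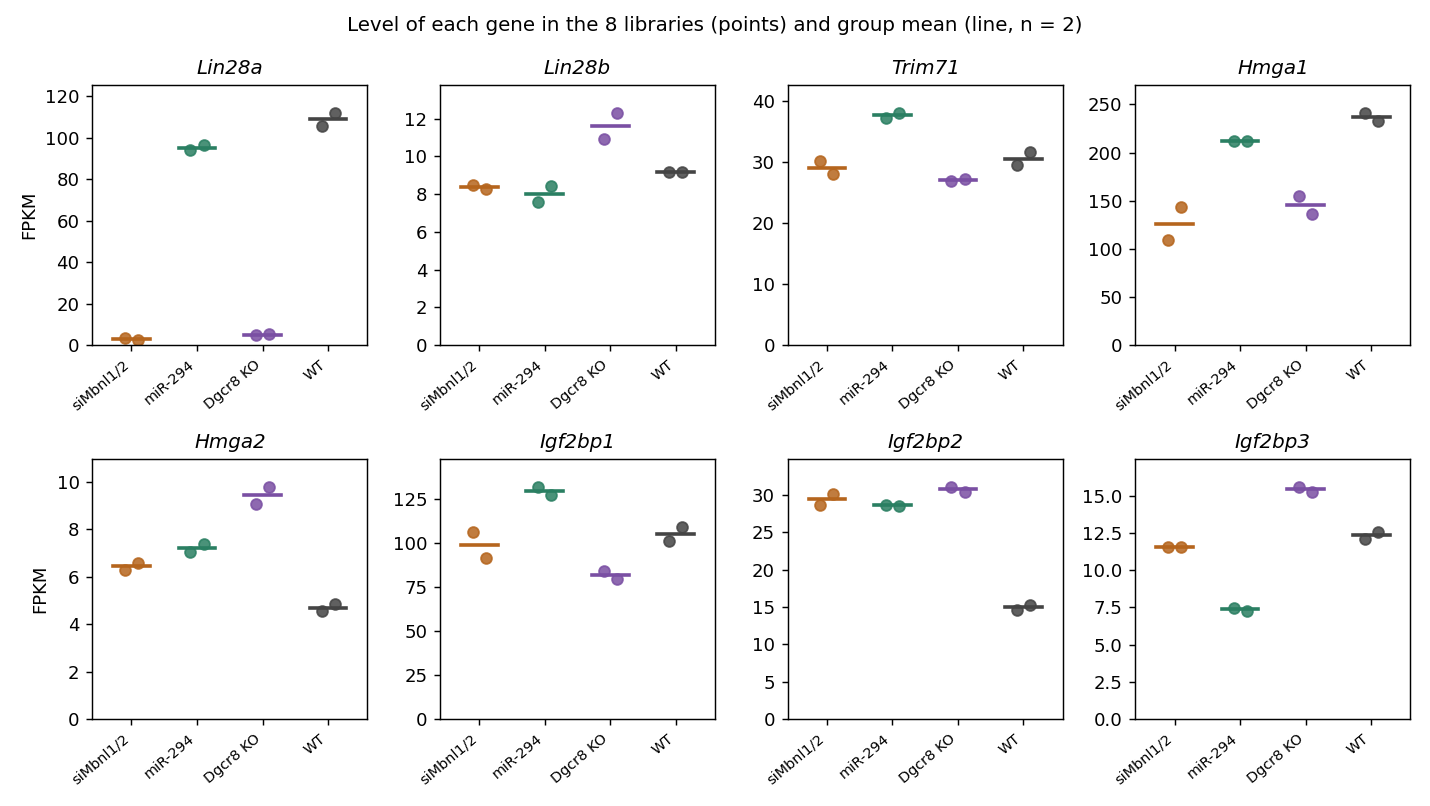
Level of each of the 8 genes in FPKM (vertical axes, from 0) in the libraries of the 4 groups; points are single libraries and lines are group means (n = 2). Lin28a is near the floor in siMbnl1/2 and Dgcr8 KO cells and near 100 FPKM in miR-294 and WT cells, while Igf2bp2 is about 30 FPKM in every group except WT.

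Trim71 (ENSMUSG00000079259.2, chr9:114507133-114564369, minus strand), an RNA-binding ubiquitin ligase of stem cells and the mouse counterpart of worm lin-41, was highest with miR-294. Its level was 30.2 and 28.1 FPKM in siMbnl1/2 cells, 37.3 and 38.1 FPKM in miR-294 cells, 26.8 and 27.2 FPKM in Dgcr8 KO cells, and 29.5 and 31.6 FPKM in WT cells. The miR-294 libraries stood above all others, and the siMbnl1/2 and WT libraries overlapped. Trim71 rose by 0.46 ± 0.07 on the log2 scale in miR-294 over Dgcr8 KO cells (adjusted p = 0.00130). The difference between Dgcr8 KO and WT cells, -0.17 ± 0.07 with a 95% interval of -0.33 to -0.01, did not pass after adjustment (adjusted p = 0.0691). Trim71 was also higher in miR-294 than in WT cells, by 0.29 (adjusted p = 0.0207), a call lost when any 1 of the 4 libraries was left out (adjusted p 0.0749 to 0.169).

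The Hmga genes encode AT-hook proteins that bend DNA and open chromatin, and their members went apart. Hmga1 (ENSMUSG00000046711.15, chr17:27556620-27563674, plus strand) stood at 109 and 143 FPKM in siMbnl1/2 cells, 212 and 212 FPKM in miR-294 cells, 155 and 136 FPKM in Dgcr8 KO cells, and 241 and 233 FPKM in WT cells. The siMbnl1/2 and Dgcr8 KO libraries were low and overlapped, and the miR-294 libraries lay just under those of WT. Hmga1 fell by 0.70 ± 0.12 on the log2 scale in Dgcr8 KO relative to WT cells (adjusted p = 0.00193; -0.36 with quantile normalization), and was 0.54 higher in miR-294 than in Dgcr8 KO cells (adjusted p = 0.00816). The call between miR-294 and Dgcr8 KO cells was lost with quantile normalization (0.26, adjusted p = 0.117) and without Dgcr8 KO replicate 2 (adjusted p = 0.0511). In siMbnl1/2 cells the difference from Dgcr8 KO cells was -0.21 (adjusted p = 0.425) with both libraries and passed without siMbnl1/2 replicate 2 (adjusted p = 0.0483).

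Hmga2 (ENSMUSG00000056758.14, chr10:120361275-120476469, minus strand), the member with 7 let-7 matches, stood at 6.29 and 6.59 FPKM in siMbnl1/2 cells, 7.04 and 7.37 FPKM in miR-294 cells, 9.08 and 9.81 FPKM in Dgcr8 KO cells, and 4.56 and 4.85 FPKM in WT cells. The groups did not overlap, with Dgcr8 KO highest and WT lowest. Hmga2 rose by 0.87 ± 0.09 on the log2 scale in Dgcr8 KO over WT cells (adjusted p = 1.24e-04), where Hmga1 fell. In miR-294 cells it fell by 0.35 below Dgcr8 KO cells (adjusted p = 0.0123) and was 0.52 higher than in WT cells (adjusted p = 0.00504). The first of these calls was lost with quantile normalization (-0.17, adjusted p = 0.158) and without miR-294 replicate 1 (0.0842), miR-294 replicate 2 (0.0524) or Dgcr8 KO replicate 2 (0.0575), and the second without miR-294 replicate 2 (0.0512) or WT replicate 1 (0.0566). Against Dgcr8 KO cells, siMbnl1/2 cells differed by -0.49 (adjusted p = 0.0519), which passed under median-of-ratios scaling (0.0365), quantile normalization (0.0388) and without siMbnl1/2 replicate 2 (0.0386). Hmga2 made up 4.92% of the summed Hmga1 and Hmga2 FPKM in siMbnl1/2, 3.29% in miR-294, 6.13% in Dgcr8 KO and 1.95% in WT cells.

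The 3 Igf2bp genes encode RNA-binding proteins of fetal tissue that bind and protect target mRNAs, and each had its own pattern. Igf2bp1 (ENSMUSG00000013415.9, chr11:95957163-96005940, minus strand), the most abundant, stood at 106 and 91.1 FPKM in siMbnl1/2 cells, 132 and 127 FPKM in miR-294 cells, 83.9 and 79.5 FPKM in Dgcr8 KO cells, and 101 and 109 FPKM in WT cells. The miR-294 libraries were the highest and the Dgcr8 KO libraries the lowest, while siMbnl1/2 and WT overlapped. Igf2bp1 fell by 0.36 ± 0.08 on the log2 scale in Dgcr8 KO relative to WT cells (adjusted p = 0.00797), a call that was lost with quantile normalization (-0.07, adjusted p = 0.529) and without WT replicate 2 (adjusted p = 0.0654). It rose by 0.66 ± 0.08 in miR-294 over Dgcr8 KO cells (adjusted p = 6.36e-04). In siMbnl1/2 cells the difference from Dgcr8 KO cells was 0.26 (adjusted p = 0.162), and it passed without siMbnl1/2 replicate 2 (adjusted p = 0.0442). The difference of 0.30 between miR-294 and WT cells passed (adjusted p = 0.0373), but not without the filter on low values (adjusted p = 0.0808) or without any 1 of the 4 libraries (adjusted p 0.0979 to 0.224).

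Igf2bp2 (ENSMUSG00000033581.16, chr16:22059009-22163299, minus strand) separated WT from the rest. It stood at 28.7 and 30.1 FPKM in siMbnl1/2 cells, 28.7 and 28.5 FPKM in miR-294 cells, 31.1 and 30.4 FPKM in Dgcr8 KO cells, and 14.6 and 15.3 FPKM in WT cells. The 6 libraries from cells with the Dgcr8 deletion lay within a few FPKM of each other, and both WT libraries far below. Igf2bp2 was 0.99 ± 0.07 higher on the log2 scale in Dgcr8 KO than in WT cells (adjusted p = 2.29e-05), 0.89 higher in miR-294 than in WT cells (adjusted p = 1.98e-04) and 0.93 higher in siMbnl1/2 than in WT cells (adjusted p = 2.61e-05). The difference between miR-294 and Dgcr8 KO cells was -0.10 ± 0.07 with a 95% interval of -0.26 to 0.05 (adjusted p = 0.236).

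Igf2bp3 (ENSMUSG00000029814.10, chr6:49085223-49214957, minus strand) was lowest with miR-294. It stood at 11.6 and 11.6 FPKM in siMbnl1/2 cells, 7.45 and 7.28 FPKM in miR-294 cells, 15.6 and 15.2 FPKM in Dgcr8 KO cells, and 12.1 and 12.6 FPKM in WT cells. The groups did not overlap, with Dgcr8 KO highest. In miR-294 cells Igf2bp3 fell by 0.97 ± 0.07 on the log2 scale below Dgcr8 KO cells (adjusted p = 8.21e-05) and by 0.67 below WT cells (adjusted p = 8.98e-04). In Dgcr8 KO cells it was 0.30 higher than in WT cells (adjusted p = 0.00867), a call lost with quantile normalization (adjusted p = 0.0513) and without WT replicate 1 (adjusted p = 0.0760). In siMbnl1/2 cells it differed from Dgcr8 KO cells by -0.38 (adjusted p = 0.0554), which passed under median-of-ratios scaling (0.0356) and quantile normalization (0.0401).

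The make-up of the Igf2bp family differed between groups as well. Igf2bp1, Igf2bp2 and Igf2bp3 made up 70.5%, 21.2% and 8.32% of the summed FPKM in siMbnl1/2 cells, and 78.3%, 17.3% and 4.45% in miR-294 cells. They made up 63.9%, 24.1% and 12.1% in Dgcr8 KO cells, and 79.4%, 11.3% and 9.32% in WT cells. The sum was 139 ± 9.38 FPKM in siMbnl1/2, 165 ± 3.67 in miR-294, 128 ± 3.97 in Dgcr8 KO and 132 ± 6.34 in WT cells (SD, n = 2 each).

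**Figure D3:**
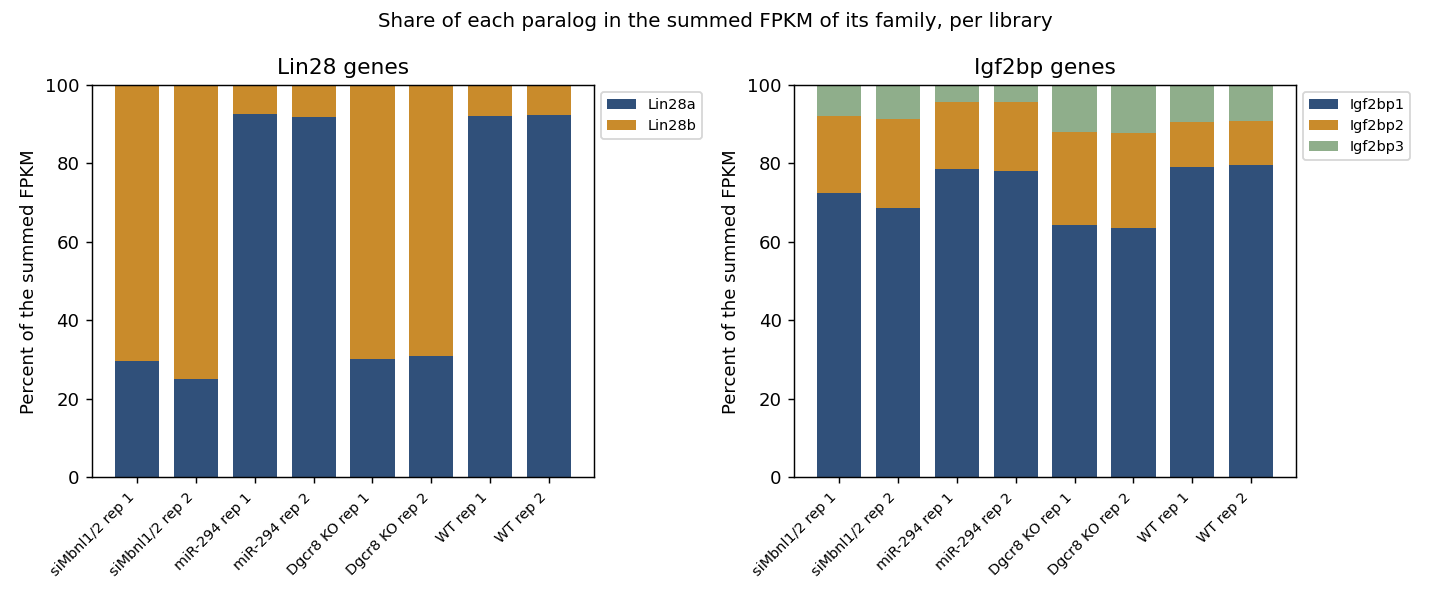
Share of each paralog in the summed FPKM of its family, in percent, per library. Lin28a makes up 92.2% in miR-294 and in WT cells, 27.3% in siMbnl1/2 cells and 30.6% in Dgcr8 KO cells; Igf2bp2 has its smallest share in WT cells, 11.3%.

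Over the whole set, 4 members rose and 3 fell in Dgcr8 KO relative to WT cells, and Trim71 did not pass. Of all genes tested 59.8% were called in that comparison, 29.6% as higher and 30.1% as lower, and the members' count of 7 was not tested against that background. Their median change was 0.07, against 0 over all genes, and the median size of change was 0.53, against 0.41. In miR-294 relative to Dgcr8 KO cells 4 rose and 3 fell, where 52.2% of all genes were called (22.9% higher and 29.2% lower), with a median of 0.18, against -0.06 over all genes. Both comparisons use the Dgcr8 KO libraries, so opposite signs in them are not independent. Side by side, Lin28a and Hmga1 were low in Dgcr8 KO cells and near WT with miR-294. The Hmga1 difference of miR-294 from WT cells, -0.16 (adjusted p = 0.373), passed with those libraries alone (adjusted p = 0.00829) and with weights (adjusted p = 0.0482). Lin28b, Hmga2 and Igf2bp3 were highest in Dgcr8 KO cells, with the limits given above for each. Their differences between siMbnl1/2 and Dgcr8 KO cells did not pass in the main fit. Igf2bp2 averaged 28.6 FPKM in miR-294 and 30.7 FPKM in Dgcr8 KO cells, both above its 14.9 FPKM in WT cells.

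In siMbnl1/2 relative to Dgcr8 KO cells limma called none of the 8 genes, and 5 of the 8 had an unadjusted p under 0.05. Of all genes 1.11% were called (0.868% higher and 0.242% lower) and 18.4% had an unadjusted p under 0.05. The groups did not overlap for 7 of the 8 genes, against 38.7% of all genes, and the median change was -0.30, against 0.04 over all genes. With median-of-ratios scaling or quantile normalization 2 members passed as lower, Hmga2 and Igf2bp3. Of the 12786 genes 204 and 205 were called in these settings, against 142 in the main fit. Without siMbnl1/2 replicate 2 more members and more of all genes passed, and those members went both ways. Of the 5 members that differed between siMbnl1/2 and miR-294 cells, Igf2bp3 was higher with siMbnl1/2 and Lin28a, Trim71, Hmga1 and Igf2bp1 were lower, where 54.0% of all genes were called (33.0% higher and 21.0% lower). With quantile normalization Igf2bp1 no longer passed there (-0.21 in place of -0.39, adjusted p = 0.0765) and Igf2bp3 was 0.37 higher in place of 0.59. Hmga2, at -0.14 there (adjusted p = 0.211), passed as lower with median-of-ratios scaling (-0.25, adjusted p = 0.0461) and quantile normalization (-0.39, adjusted p = 0.0105).

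Relative to WT cells, miR-294 cells had 4 members higher (Trim71, Hmga2, Igf2bp1 and Igf2bp2) and 1 lower (Igf2bp3), where 26.5% of all genes were called (11.8% higher and 14.7% lower). With those libraries fitted alone 4 members were higher and 3 lower, where 6311 of the 12786 genes were called, against 3390 in the main fit. With each library weighted by its group's spread 4 were higher and 4 lower, where 6669 genes were called. Fewer members and fewer of all genes passed when any 1 of the 4 libraries was left out. In siMbnl1/2 relative to WT cells Hmga2 and Igf2bp2 were higher and Lin28a and Hmga1 lower. Of all genes 60.5% were called there (32.8% higher and 27.7% lower). With quantile normalization Lin28b (-0.33, adjusted p = 0.0264) and Igf2bp3 (-0.24, adjusted p = 0.0248) passed as lower too. The Hmga2 difference, 0.38, did not pass with quantile normalization (0.13, adjusted p = 0.273) or without WT replicate 1 (adjusted p = 0.0567).

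**Figure D4:**
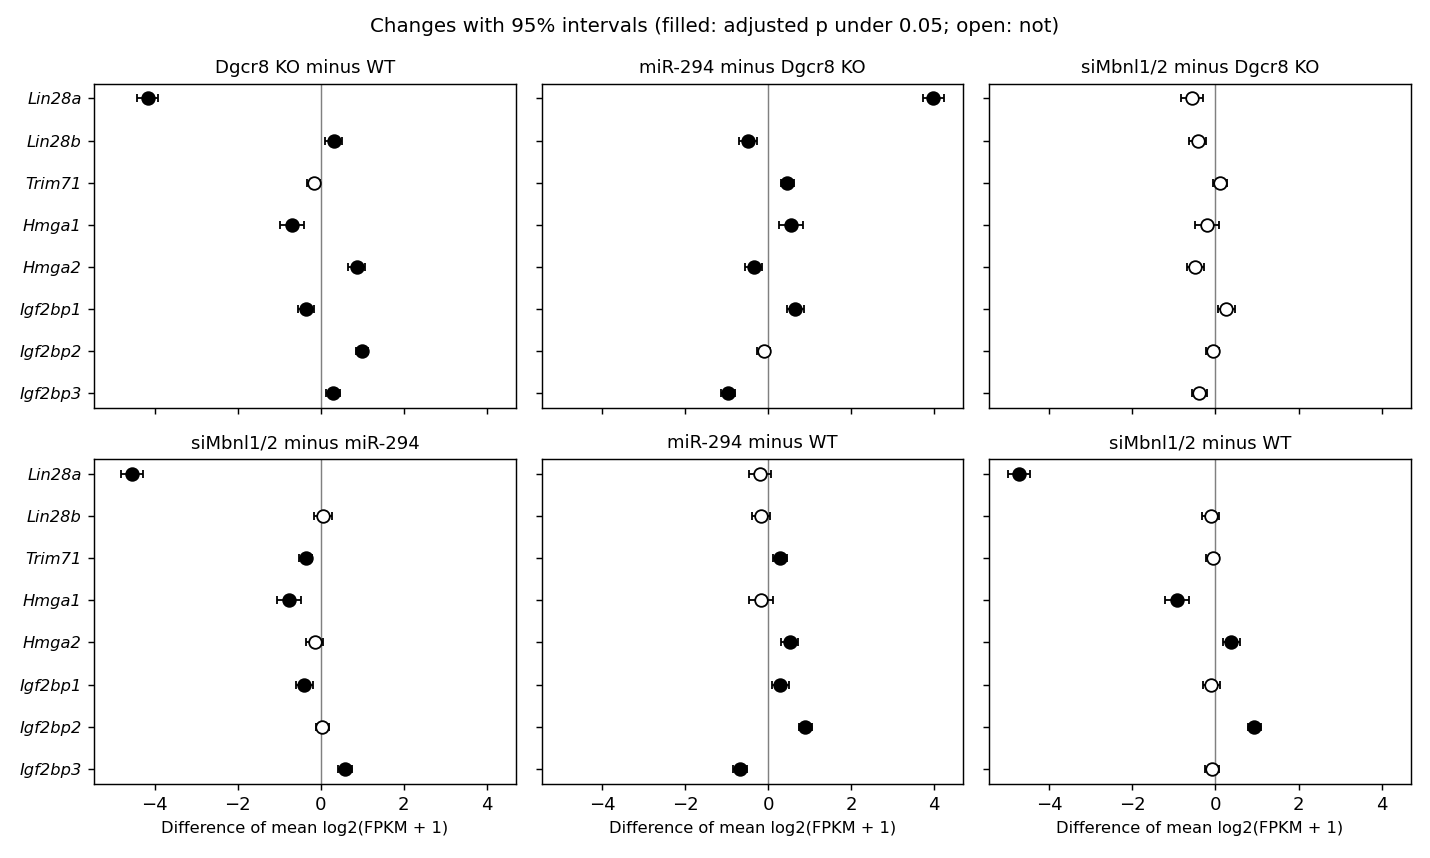
Difference of mean log2(FPKM + 1) for each gene (rows) in the 6 comparisons (panels), with 95% intervals; filled points passed an adjusted p of 0.05. Lin28a lies beyond 3.9 in size in 4 panels, and no point is filled for siMbnl1/2 minus Dgcr8 KO.

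Among the 8 genes, Pearson's r of log2(FPKM + 1) over the 8 libraries, which fall into 4 groups, was 0.96 for Trim71 with Igf2bp1, -0.95 for Trim71 with Igf2bp3 and 0.94 for Lin28a with Hmga1. Hmga2 and Igf2bp2 had 0.85. Across all tested genes whose range was at least 0.5 times that of Lin28a, the 5 most like it were Myc (r = 0.996), Gbx2 (0.994), Soga3 (0.994), Spink1 (0.989) and Fgf17 (0.988), out of 178 such genes. Gbx2 averaged 4.90 FPKM in siMbnl1/2, 37.1 in miR-294, 6.66 in Dgcr8 KO and 46.0 in WT cells. For the other members the genes most alike were Atad5, Arf4 and Zdhhc15 for Lin28b, Rinl, Ticrr and Pim2 for Trim71, Kpna6, Bap1 and Ran for Hmga1, and Napsa, Xbp1 and Podxl for Hmga2. They were Zbed5, Spata45 and Gpr4 for Igf2bp1, Tenm4, Ifnar1 and Slc37a1 for Igf2bp2, and Tia1, Dtl and Hes1 for Igf2bp3, with r between 0.951 and 0.999 for all of these. The points share libraries and scaling.

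A list of 29 other published let-7 targets was measured beside the 8 genes, of which 27 passed the filter and Acvr1c and Fign were too low. In Dgcr8 KO relative to WT cells 12 rose, 9 fell and 6 did not pass, where 59.8% of all genes were called (29.6% higher and 30.1% lower). Their median change was 0.23, or 0.12 without Dgcr8 KO replicate 1, against 0 over all genes. Plagl1, a zinc finger transcription factor, averaged 30.4 FPKM in Dgcr8 KO and 1.57 FPKM in WT cells, a rise of 3.61 on the log2 scale (adjusted p = 8.83e-07). Ccnd2, the D-type cyclin of the G1 phase, averaged 31.0 FPKM in Dgcr8 KO and 4.80 FPKM in WT cells, a rise of 2.46 (adjusted p = 1.87e-06). The largest decreases were in Myc, the growth-promoting transcription factor, with -3.39 ± 0.19 (2.26 FPKM in Dgcr8 KO, 33.1 in WT, adjusted p = 1.05e-05), and in Cdc34, a ubiquitin-conjugating enzyme, with -0.76 (116 FPKM in Dgcr8 KO, 196 in WT, adjusted p = 1.33e-04).

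In miR-294 relative to Dgcr8 KO cells 7 of these targets rose, 15 fell and 5 did not pass, where 52.2% of all genes were called (22.9% higher and 29.2% lower). Their median change was -0.34, or -0.20 with quantile normalization, against -0.06 over all genes. Myc rose to 27.4 FPKM in miR-294 cells, against 2.26 FPKM in Dgcr8 KO cells, by 3.12 on the log2 scale (adjusted p = 4.57e-05), and Mycn to 99.2 FPKM with miR-294, against 67.8 FPKM in Dgcr8 KO, by 0.54 (adjusted p = 6.74e-04). Plagl1 fell to 4.86 FPKM in miR-294 cells, against 30.4 FPKM in Dgcr8 KO cells, by 2.42 (adjusted p = 9.17e-06), and Tgfbr1, the type I TGF-beta receptor, to 6.11 FPKM with miR-294, against 12.0 FPKM in Dgcr8 KO, by 0.88 (adjusted p = 2.20e-04). In siMbnl1/2 relative to Dgcr8 KO cells limma called 1 of the 27 targets, and 10 of the 27 had an unadjusted p under 0.05, where 1.11% of all genes were called and 18.4% had such a p. That gene was Ccnd2, 21.0 FPKM in siMbnl1/2 and 31.0 FPKM in Dgcr8 KO cells, -0.54 on the log2 scale (adjusted p = 0.0366); the call was lost in 6 alternative fits, among them those without Dgcr8 KO replicate 1 (0.0651) or replicate 2 (0.154), and 3 and 2 targets passed without siMbnl1/2 replicates 1 and 2. Of the 29 listed targets, 24 hold a let-7 match and 14 a miR-294 match in their longest 3′ UTR. Among those named for their changes, Ccnd2, Mycn and Tgfbr1 hold both, Cdc34 holds let-7 matches alone, and Plagl1 and Myc hold neither.

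**Figure D5:**
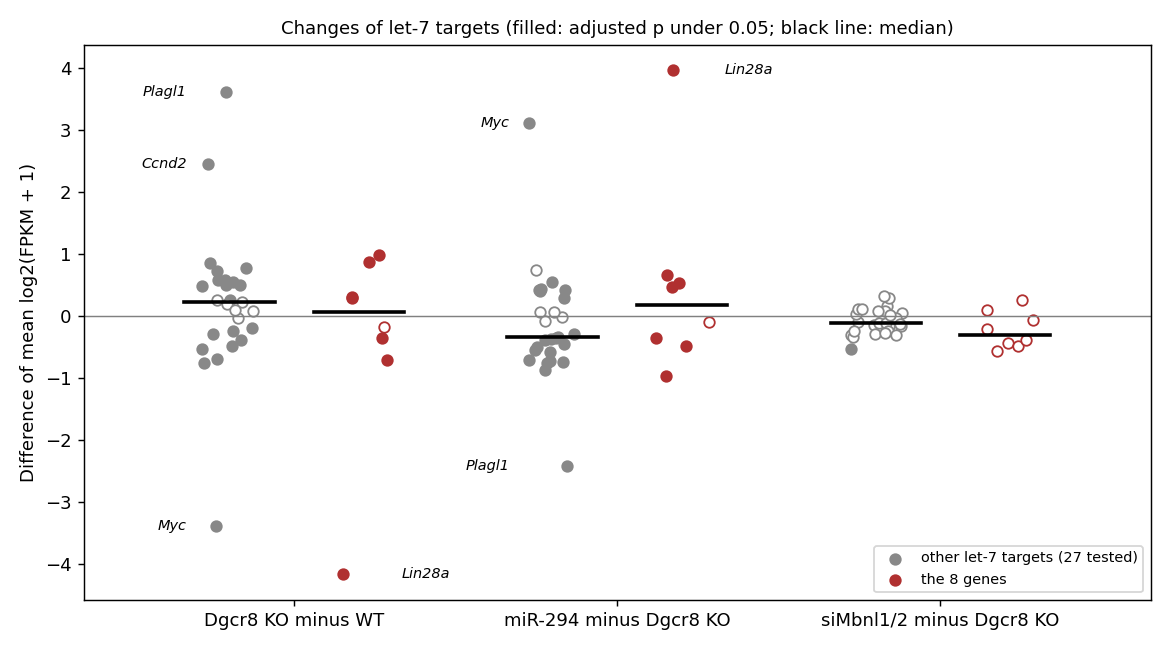
Difference of mean log2(FPKM + 1) in 3 comparisons for the 27 other let-7 targets (grey) and the 8 genes (red); filled points passed an adjusted p of 0.05 and black lines are medians. Changes of more than 1 are named: Lin28a and Myc are low in Dgcr8 KO relative to WT and high with miR-294, and Plagl1 the reverse.

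A list of 10 factors that work with Lin28 or process let-7 was measured as well, and all 10 passed the filter. In Dgcr8 KO relative to WT cells 2 rose, 1 fell and 7 did not pass; with quantile normalization 4 rose and 1 fell. Of all genes 59.8% were called in that comparison. Msi1, a Musashi RNA-binding protein, averaged 19.0 FPKM in Dgcr8 KO and 7.72 FPKM in WT cells, a rise of 1.19 (adjusted p = 0.00149), and Dicer1, which makes the second cut, rose by 0.37 (17.6 FPKM in Dgcr8 KO, 13.3 in WT, adjusted p = 0.00223). Xpo5, which exports precursors from the nucleus, fell by 0.48 (35.7 FPKM in Dgcr8 KO, 50.2 in WT, adjusted p = 8.01e-04). In miR-294 relative to Dgcr8 KO cells 3 rose and 4 fell, where 52.2% of all genes were called (22.9% higher and 29.2% lower); 2 rose and 2 fell without either miR-294 library or without Dgcr8 KO replicate 2.

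Of the genes behind those counts, Xpo5 rose by 0.36 in miR-294 cells (adjusted p = 0.00405) and Drosha by 0.30 (adjusted p = 0.00504), while Msi1 fell by 1.22 (7.57 FPKM in miR-294, 19.0 FPKM in Dgcr8 KO, adjusted p = 0.00183) and Dicer1 by 0.41 (adjusted p = 0.00184). In siMbnl1/2 relative to Dgcr8 KO cells limma called none of the 10, and none had an unadjusted p under 0.05, where 1.11% and 18.4% of all genes did; 1 fell without siMbnl1/2 replicate 2. The siMbnl1/2 libraries differed from each other in Msi1, at 11.3 and 18.2 FPKM.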

How the data were processed

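The deposited table holds FPKM per gene and library. The authors' steps are known from the submitters' processing notes, which name STAR 2.5.0, Cufflinks 2.2.1 and the build mm10; the annotation release is not given in the sources used here. Libraries kept the strand, per the labels' protocols, and the material is called both polyA and total RNA. FPKM depends on the total of its library, and no reads were recovered from it.

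From these values log2(FPKM + 1) was computed, which understates changes of low genes. limma 3.58.1 (R 4.3.3, statmod 1.5.0) fitted 4 group means to all 8 libraries for the 12786 genes that averaged 1 FPKM or more, with a trended, robust moderated variance. Genes were called at a two-sided Benjamini-Hochberg adjusted p under 0.05 over all genes tested, in each of 6 comparisons. The fit was tested on simulated data.

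Named were all 8 members, Dgcr8, Mbnl1 and Mbnl2, the genes most correlated with each member (5 for Lin28a, 3 for others, leaving out predicted genes, clones, small RNAs and pseudogenes), and the 2 largest called increases and decreases of each list. The members and lists were chosen with earlier results of these data known. 15 alternative settings were tried.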

Additional observations from a re-analysis of the deposited data

How the results depend on the processing

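Each of the 8 genes in each of 6 comparisons gave 48 results, of which 28 passed the test. Each result was refitted under 11 of the 15 alternatives, since a left-out library was assessed only in comparisons that use it. Of the 28, 18 passed under all 11 and 10 lost the call under at least 1. Of the 20 that had not passed, 11 did so under at least 1. The number of the 8 genes called in Dgcr8 KO minus WT was 7, and 4 with quantile normalization, where 7641 and 7378 of all genes were called. Fewer of the 8 passed without Dgcr8 KO replicate 2 or either WT library. In miR-294 minus Dgcr8 KO 4 were higher and 3 lower, and 3 and 2 with quantile normalization, where 6671 and 6383 of all genes were called. Fewer of the 8 passed there without Dgcr8 KO replicate 2 or either miR-294 library. In siMbnl1/2 minus Dgcr8 KO the number called was 0, and 2 with median-of-ratios scaling and 2 with quantile normalization. The number rose when either siMbnl1/2 library was left out, and did not when a Dgcr8 KO library was. In miR-294 minus WT the number called was 5, and 8 when libraries were weighted by the spread of their group (an alternative chosen after seeing the data). With those libraries alone, a planned setting, 4 were higher and 3 lower. Without the filter on low values, and with the replicate block, 3 were higher and 1 lower. Fewer than in the main fit passed when any 1 of the 4 libraries was left out.

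Direction reversed in results that had not passed. Lin28b in siMbnl1/2 minus miR-294 was 0.053, and -0.061 with median-of-ratios scaling, -0.19 with quantile normalization and -0.014 to 0.12 over the left-out libraries. Igf2bp2 in that comparison was 0.039, and -0.085 with median-of-ratios scaling. Igf2bp1 in siMbnl1/2 minus WT was -0.096, and 0.17 with quantile normalization and -0.20 to 0.011 over the left-out libraries. The cause was not tested.

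Over all genes, 142 were called in siMbnl1/2 minus Dgcr8 KO, against 61 without the filter, 4 with those libraries alone, 33 with the replicate block, 8 with weights, 654 without siMbnl1/2 replicate 2, and 81 and 15 without Dgcr8 KO replicates 1 and 2. In miR-294 minus WT 3390 were called, against 6311 with those libraries alone, 6669 with weights and 1203 to 1357 with a library left out. Of the calls in siMbnl1/2 minus Dgcr8 KO 111 were higher and 31 lower, against 92 and 112 with median-of-ratios scaling and 117 and 88 with quantile normalization. In siMbnl1/2 minus miR-294 they were 4217 and 2685, against 3362 and 3545, and 3137 and 3364; the median of all genes there was 0.10, against -0.01 and -0.02.

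Whether equal replicate numbers pair the libraries is not stated in the sources used here. The correlation of their deviations was -0.05 to 0.19, which with 2 libraries per group cannot settle it. With the number as a replicate block, Igf2bp1 in miR-294 minus WT lost its call (adjusted p = 0.0589), and no other call on the 8 genes changed. The number of reads is unknown and groups have 2 libraries, so counting error and outlying libraries were not assessed.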
